A study of Mus musculus with 12 samples.

Results

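The genotype difference of the NKG2D response was measured gene by gene, as the log2 change on stimulation in Mirc11-/- natural killer (NK) cells minus the log2 change in wild-type cells. A negative difference is a smaller rise or a larger fall in Mirc11-/- cells, and a positive one is a larger rise or a smaller fall. All 12 of the 12 RNA-seq libraries entered, and 17457 of the 50674 genes in the count table had enough counts to be tested. The cells were splenic NK cells of C57BL/6 mice expanded in IL-2, so culture in IL-2 is common to all 4 groups. The groups were untreated wild-type cells, wild-type cells after 6 h of NKG2D stimulation, untreated Mirc11-/- cells and Mirc11-/- cells after the same stimulation, with 3 biological replicates each. The sources used here do not give the animals' age, which animals each replicate came from or the cells in which the deletion arose. P-values therefore measure the spread between these samples, which may be partly technical. The study's title names modifiers of ubiquitin, TRAF6 and the factors NF-kB and AP-1, and the difference of responses addresses whether inducible genes of those routes respond alike with and without Mirc11.

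NKG2D, encoded by Klrk1, is an activating receptor of NK cells that recognises stress-induced ligands and signals through the adaptors DAP10 (Hcst) and DAP12 (Tyrobp). Downstream kinases and adaptors lead to calcium entry and NFAT, to ERK and AP-1, and, through adaptors and the ubiquitin ligase TRAF6, to the IKK kinases and NF-kB. These factors together switch on cytokine and chemokine genes, while A20 (Tnfaip3) and IkB-alpha (Nfkbia) are induced inhibitors that limit NF-kB. The Mirc11 cluster holds the genes of 3 microRNAs, miR-23a, miR-27a and miR-24-2, which lower their target messages by pairing through the seed with sites in 3' untranslated regions (3' UTRs).

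The mature microRNAs of the deleted cluster are shown because sites for them were searched in the genes described below. Capitals mark the seed, bases 2 to 8. The sequences are from RefSeq, build GRCm38.p6, and each has a seed of its own. Mature miR-24-3p is also made from another gene outside the cluster.
mmu-miR-23a-3p: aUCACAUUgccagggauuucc
mmu-miR-27a-3p: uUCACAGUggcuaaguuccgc
mmu-miR-24-3p: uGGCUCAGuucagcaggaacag

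Sites complementary to a seed are shown for genes with lower estimates of the response in Mirc11-/- than in wild-type cells (Ifng, Ccl4 and Irf4) and for an inducible gene with a like response in both genotypes (Tnfaip3). They were read from GENCODE vM21 transcripts (GRCm38), and capitals mark the 7 bases that pair with the seed.
Ifng, miR-27a, base 263 of the 3' UTR: attagccaagACTGTGAttgcggggtt
Ifng, miR-27a, base 543 of the 3' UTR: acagctgaaaACTGTGActacacccga
Ccl4, miR-27a, base 251 of the 3' UTR: tgtggatatgACTGTGAaattgatttc
Irf4, miR-27a, base 208 of the 3' UTR: ctggcttataACTGTGAaacttgatca
Irf4, miR-23a, base 2486 of the 3' UTR: agacaggctgAATGTGAgccccagcag
Tnfaip3, miR-27a, base 59 of the 3' UTR: tcacagtggtACTGTGAtccagacccc
Tnfaip3, miR-24, base 331 of the 3' UTR: gcagcagttcCTGAGCCtggctgccag
Tnfaip3, miR-23a, base 1667 of the 3' UTR: tttcattgttAATGTGAaatggttatt
No such match was present in the 3' UTRs of Ccl3, Xcl1, Egr2, Csf2 and Tnf. Among 12784 tested genes with a 3' UTR, 17.1% held a miR-23a match, 18.2% a miR-27a match and 19.5% a miR-24 match, so a match alone is common.

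Library totals ran from 15139281 to 25342991 counts, with 15.1 to 18.5 megacounts in Mirc11-/- and 18.9 to 25.3 megacounts in wild-type libraries. Genes of vomeronasal receptors, which NK cells are not known to use and which serve here as a measure of background reads, summed to 13.6 to 17.4 CPM (counts scaled to a common library size, with TMM factors) in unstimulated wild-type and 14.6 to 16.97 CPM in unstimulated Mirc11-/- libraries. The sums were 24.8 to 41.5 CPM in stimulated wild-type and 49.1 to 85.4 CPM in stimulated Mirc11-/- libraries, so the stimulated Mirc11-/- libraries were the highest and did not overlap any other group. Stimulated Mirc11-/- replicate 1 had the highest sum and stood apart on the second principal component (-38.2, against -19.8 or more in the other 11 libraries). The NK receptor genes Ncr1 and Klrb1c were at 124 to 158 and 247 to 320 CPM in unstimulated libraries of both genotypes. None of 39 tested entries of 7 lists of other cell types' markers was called for the difference of responses, and 1 had an unadjusted p under 0.05 (the B-cell gene Cd22, higher). The 11 T-cell markers, led by Trbc1, summed to 314 to 417, 351 to 390, 362 to 454 and 325 to 372 CPM in unstimulated and stimulated wild-type and unstimulated and stimulated Mirc11-/- libraries. The 9 B-cell markers (6 of them tested), mostly Ighm, summed to 57.9 to 72.3, 106 to 130, 65.0 to 74.2 and 106 to 117 CPM in the same order. Fcer1a (mast cells) and Hbb-bt (red cells) had 0 counts in all libraries, but other members of their lists were detected. The neutrophil and mast-cell markers, mostly Kit, summed to 27.75 to 31.94, 70.45 to 105.8, 17.28 to 29.14 and 71.27 to 111.8 CPM in the same order. The red-cell and platelet markers summed to between 1.63 and 5.62 CPM over all libraries. The part of these other cells in the results was not tested, and in bulk RNA fewer responding cells cannot be told apart from less RNA per cell.

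After correction over all 17457 genes, edgeR called 2 genes with a negative difference of responses (0.0115% of those tested) and 0 with a positive one (0%). The same contrast in limma voom gave 2 and 0, and the DESeq2 Wald test called 52 and 17. At an unadjusted p under 0.05 there were 853 genes lower (4.89%) and 1005 higher (5.76%), so that 45.9% of these lay on the lower side. The split depended on the scaling: it was 446 lower and 1336 higher when library factors were computed over well expressed genes, a choice that moved the median of all genes by 0.114 log2, and 587 lower and 1110 higher with no composition factor. A second description took the 9 possible responses of each genotype, each stimulated library minus each unstimulated one. They did not overlap between genotypes for 482 genes that were lower (2.76%) and 387 that were higher (2.22%) in Mirc11-/- cells. Equal response was tested as a bound. In 4780 genes (27.4%) the responses differed by less than 1.5-fold in either direction at an adjusted p under 0.05. The underlying responses comprised 2814 rises (16.1%) and 2745 falls (15.7%) in wild-type cells, and 4106 rises (23.5%) and 3852 falls (22.1%) in Mirc11-/- cells. Among the 4698 genes with a mean log2 CPM of 5 or more, 436 were lower and 129 higher at an unadjusted p under 0.05. Of these 4698, 257 were lower and 42 higher without overlap, and 2716 were within the 1.5-fold bound. Their median difference was -0.13 log2.

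**Figure D1:**
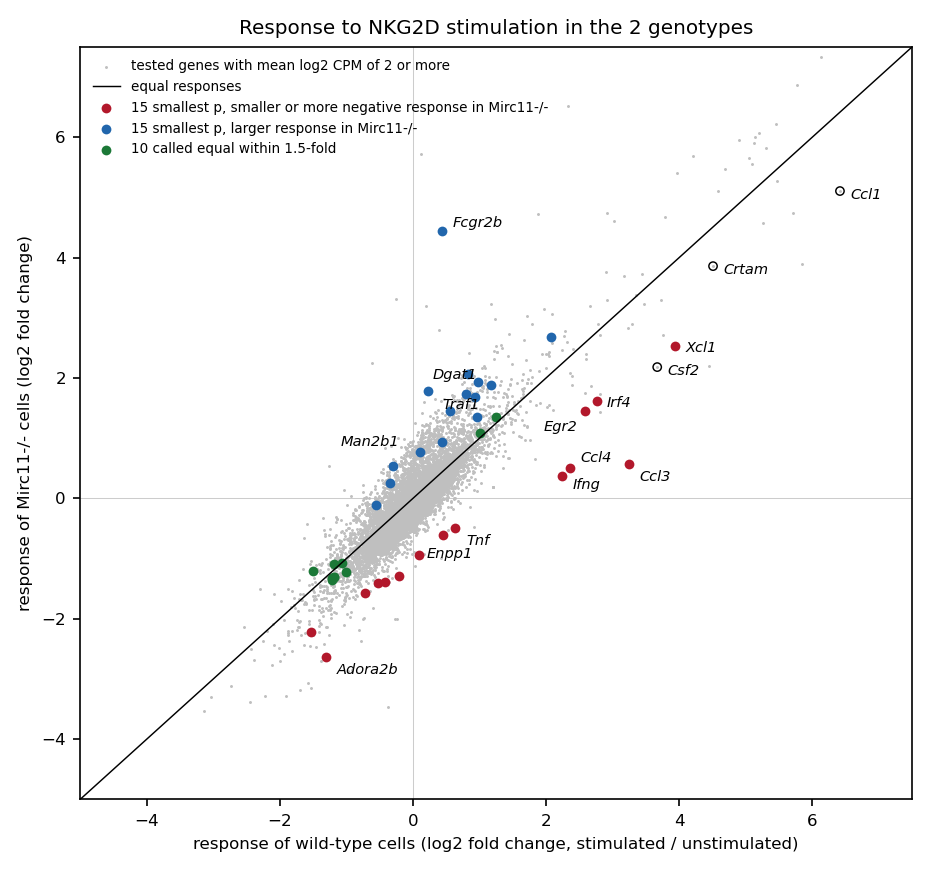
Log2 response to NKG2D stimulation in wild-type cells (horizontal axis) against Mirc11-/- cells (vertical axis); each grey point is 1 of the 10989 tested genes whose mean log2 CPM was 2 or more, coloured points are the 15 named lower (red), 15 named higher (blue) and 10 named equal (green) genes, the line marks equal responses, and 28 genes lie outside the axes, which run from -5 to 7.5. Ccl3 (3.25 and 0.57 log2) and Ifng (2.24 and 0.37 log2), the 2 called genes, lie far below the line, and Traf1 (1.25 and 1.35 log2) lies close to it.

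Both called genes encode secreted mediators. Ccl3, a chemokine that draws monocytes, T cells and NK cells (ENSMUSG00000000982, chromosome 11, 83647844 to 83649355, GRCm38), was at 39.8, 29.6 and 36.3 CPM in the unstimulated wild-type libraries and at 268, 347 and 389 CPM after stimulation. In Mirc11-/- cells it was at 38.1, 48.5 and 41.9 CPM and at 45.2, 84.9 and 60.7 CPM. Unstimulated levels overlapped between genotypes, while every stimulated wild-type library was above every stimulated Mirc11-/- library. The wild-type rise was 3.25 log2 and that of Mirc11-/- cells 0.57 log2, a difference of -2.68 log2 ± 0.30 (SE; 95% interval -3.32 to -2.03, edgeR adjusted p = 0.0223). The single-library responses ran from 2.75 to 3.72 log2 in wild-type and from -0.10 to 1.16 log2 in Mirc11-/- cells. Ifng, which encodes interferon gamma, the cytokine by which NK cells activate macrophages (ENSMUSG00000055170, chromosome 10, 118441046 to 118445892), was at 40.2, 39.0 and 35.6 CPM in unstimulated and 143, 221 and 176 CPM in stimulated wild-type libraries. In Mirc11-/- cells its values were 44.4, 47.5 and 46.1 CPM and 44.7, 71.2 and 62.0 CPM. Unlike Ccl3, unstimulated Ifng was higher in every Mirc11-/- library than in every wild-type library. After stimulation every wild-type library was the higher one, and stimulated Mirc11-/- replicate 1 stayed within the unstimulated Mirc11-/- range. The difference of responses was -1.87 log2 ± 0.23 (95% interval -2.37 to -1.36, edgeR adjusted p = 0.0223), and 22.6% of the 31-base words of the Ifng model also occur in other gene models. Both calls ended in 8 of 12 fits that left out 1 library (adjusted p up to 0.147), namely each unstimulated wild-type library, stimulated wild-type replicates 2 and 3, unstimulated Mirc11-/- replicates 2 and 3 and stimulated Mirc11-/- replicate 3. The log2 of the summed vomeronasal CPM of each library was then added to the fit as a covariate. With it the differences were -2.02 ± 0.31 log2 for Ccl3 and -1.21 ± 0.19 log2 for Ifng (edgeR adjusted p 0.345 and 0.224). In each genotype that sum did not overlap between unstimulated and stimulated libraries, so background and response cannot be told apart by this covariate, and the values given with it below may lack part of the response.

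**Figure D2:**
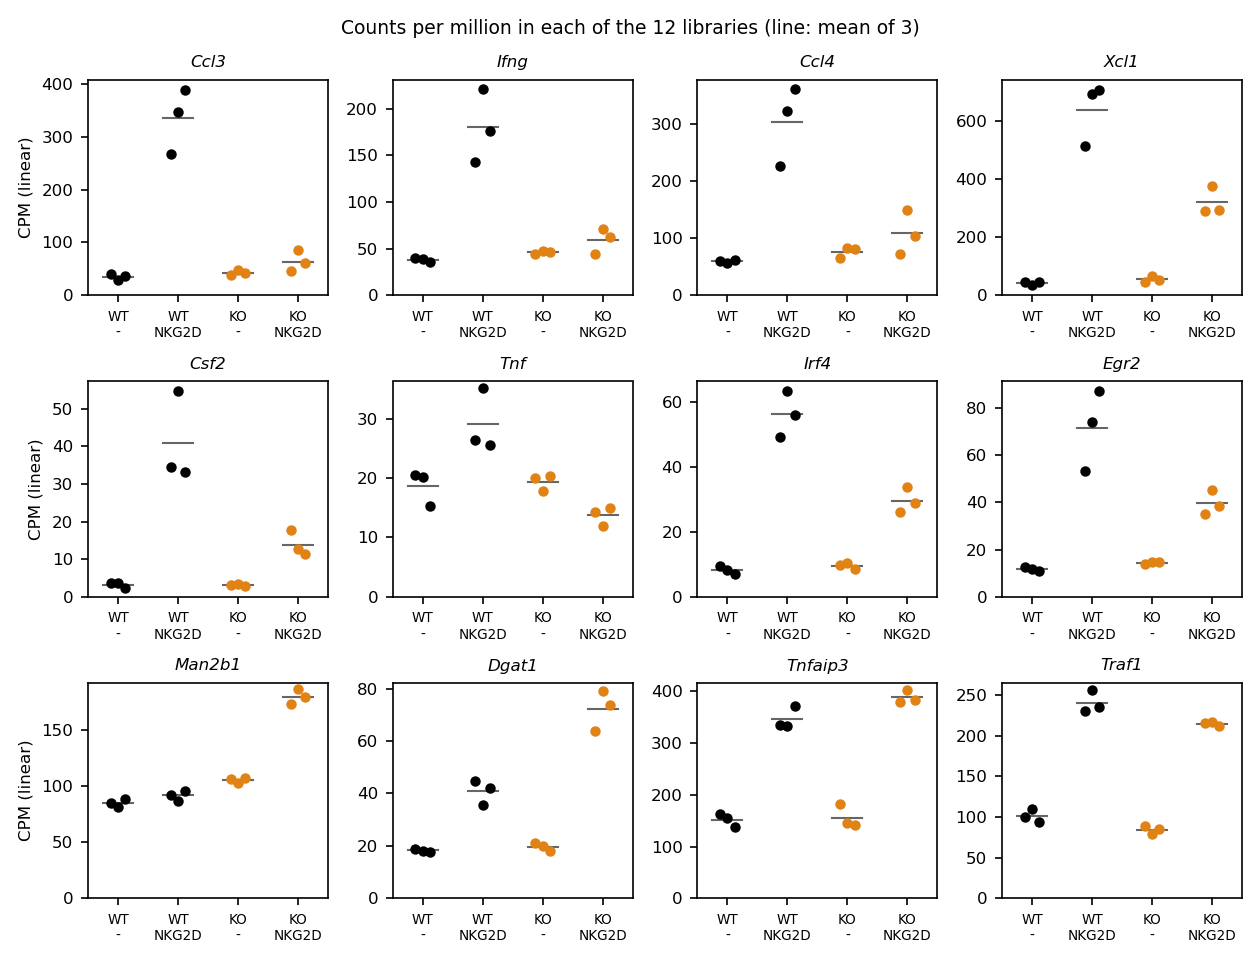
CPM (linear axes starting at 0) of 12 genes in each of the 12 libraries, by genotype (WT wild-type, KO Mirc11-/-) and treatment (- unstimulated); points are libraries and lines the means of 3. For Ccl3 and Ifng the stimulated wild-type points lie above all stimulated Mirc11-/- points, for Man2b1 the stimulated Mirc11-/- points (173 to 186 CPM) are the highest, and for Tnfaip3 the stimulated points of both genotypes lie between 332 and 403 CPM.

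Of the 10 measured chemokine genes, 9 rose in wild-type and 6 in Mirc11-/- cells, and none fell. The median response was 2.80 log2 in wild-type and 0.82 in Mirc11-/- cells, and the median difference was -1.23 log2 (-1.01 with the vomeronasal covariate), against -0.02 over all tested genes. Besides Ccl3, 5 members had an unadjusted p under 0.05, all lower, and the list was chosen with these results known. Ccl4, a neighbour and relative of Ccl3 on chromosome 11, was at 59.3, 57.2 and 62.0 CPM unstimulated and 227, 323 and 362 CPM stimulated in wild-type cells. In Mirc11-/- cells Ccl4 was at 64.7, 83.2 and 81.7 CPM and at 71.9, 150 and 104 CPM, so that the stimulated groups did not overlap. Unstimulated Ccl4 was higher in every Mirc11-/- library than in every wild-type library. Its difference of responses was -1.85 ± 0.33 log2 (edgeR adjusted p = 0.174). Xcl1, which attracts cross-presenting dendritic cells, went from 45.3, 35.2 and 44.7 to 517, 693 and 709 CPM in wild-type and from 46.4, 67.5 and 52.4 to 291, 378 and 295 CPM in Mirc11-/- cells. Xcl1 thus rose in both genotypes, with a difference of -1.40 ± 0.23 log2 (edgeR adjusted p = 0.13), and its unstimulated levels too were higher in every Mirc11-/- library. Ccl1 showed the same order at the top of the response, with 191, 282 and 251 CPM in stimulated wild-type and 101, 122 and 104 CPM in stimulated Mirc11-/- libraries, from 4.42 CPM or less before. Its difference was -1.31 ± 0.34 log2, and the single-library responses of the genotypes overlapped because the unstimulated levels were low and uneven. Ccl9 rose by 4.45 and 2.19 log2, a difference of -2.25 ± 0.47 log2. Ccl5, which resting NK cells already transcribe, rose by 0.92 and 0.50 log2 with a difference of -0.42 ± 0.17 log2, which was 0.04 log2 with the covariate.

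The 15 cytokine genes were less uniform. In wild-type cells 8 rose and 3 fell, in Mirc11-/- cells 3 rose and 6 fell, and the median difference of responses was -0.63 log2 (-0.55 with the covariate), with 6 members at an unadjusted p under 0.05, all lower. Csf2, which encodes GM-CSF, went from 3.61, 3.79 and 2.29 to 34.6, 54.6 and 33.3 CPM in wild-type and from 3.04, 3.34 and 2.81 to 17.7, 12.6 and 11.3 CPM in Mirc11-/- cells. All stimulated wild-type values were above the stimulated Mirc11-/- values, and the difference was -1.49 ± 0.36 log2 (edgeR adjusted p = 0.32). Tnfsf14, which encodes the lymphotoxin-receptor ligand LIGHT, rose to 13.2, 16.7 and 16 CPM in wild-type and to 9.39, 10.8 and 9.60 CPM in Mirc11-/- cells, with a difference of -1.06 ± 0.24 log2. Tnf, a death-receptor ligand and NF-kB target, moved in opposite directions. It went from 20.6, 20.2 and 15.2 to 26.4, 35.1 and 25.6 CPM in wild-type cells, a rise of 0.64 log2 (edgeR adjusted p = 0.00428). In Mirc11-/- cells it went from 19.9, 17.8 and 20.3 to 14.3, 11.9 and 15 CPM, where it fell by 0.49 log2 (edgeR adjusted p = 0.0155). The unstimulated levels overlapped and the stimulated levels did not, with a difference of responses of -1.13 ± 0.21 log2 (edgeR adjusted p = 0.167). Flt3l, a dendritic-cell growth factor, fell in both genotypes, by 1.02 log2 in wild-type and by 1.65 log2 in Mirc11-/- cells. Tgfb1 had the only positive estimate among the 15 (0.32 ± 0.23 log2).

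**Figure D3:**
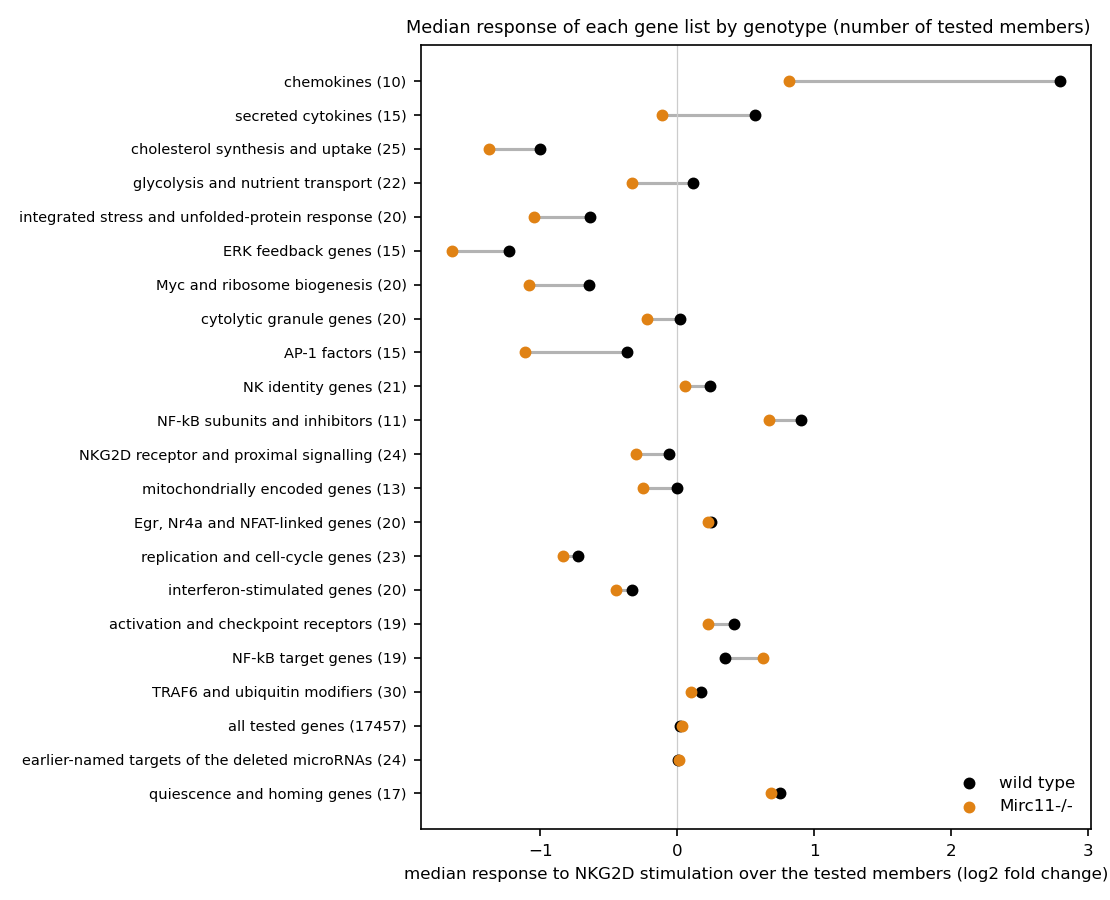
Median log2 response to stimulation in wild-type (black) and Mirc11-/- cells (orange) for each of the 21 gene lists and for all tested genes, with the number of tested members in parentheses. Chemokines show the widest gap, 2.80 against 0.82 log2, while the TRAF6 and ubiquitin modifier list lies at 0.17 and 0.10 log2.

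Inducible transcription factors of the NFAT-linked group had mixed values. Of 20 measured members, 10 rose and 5 fell in wild-type and 8 rose and 5 fell in Mirc11-/- cells. Egr2, an early growth response factor, went from 12.7, 11.9 and 11 to 53.3, 74.1 and 87.4 CPM in wild-type and from 13.7, 14.7 and 14.8 to 35.0, 45.3 and 38.3 CPM in Mirc11-/- cells. Irf4, a factor whose level scales with antigen-receptor signal strength in T cells, went from 9.49, 8.41 and 7.06 to 49.2, 63.6 and 56.2 CPM and from 9.93, 10.5 and 8.43 to 26.0, 33.9 and 28.9 CPM. Both rose in each genotype, with stimulated groups that did not overlap, and had differences of -1.13 ± 0.22 and -1.14 ± 0.20 log2 (edgeR adjusted p 0.174 and 0.13). Before stimulation Egr2 was higher in every Mirc11-/- library than in every wild-type library, while Irf4 overlapped. Nr4a1, an orphan nuclear receptor, rose by 2.02 and 1.52 log2, and its difference of -0.49 ± 0.22 log2 was less than that of Egr2. Nr4a3 rose by 0.72 and 0.79 log2 and Ikzf2 by 2.00 and 2.40 log2, with differences of 0.07 ± 0.16 and 0.40 ± 0.26 log2, so the list did not shift as a whole. Its median difference was -0.16 log2 (-0.07 with the covariate), 4 members were lower and 0 higher at an unadjusted p under 0.05, and 8 were within the 1.5-fold bound. All genes with a mean log2 CPM of 5 or more had a median of -0.13 log2. Of these 4698 genes, 436 were lower at that p and 2716 within the bound.

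Klrk1, the gene of the receptor itself, was at 116, 128 and 96.7 CPM in unstimulated and 145, 148 and 134 CPM in stimulated wild-type libraries, and at 112, 142 and 128 CPM and 125, 150 and 146 CPM in Mirc11-/- libraries. The genotypes overlapped in both states, and the difference of responses was -0.18 log2, within 1.5-fold (equivalence adjusted p = 0.0476). In the list of the receptor and its first signalling steps 13 of 24 genes were within the bound, a share near the 2716 of 4698 among all genes with a mean log2 CPM of 5 or more, and 5 were lower and 0 higher at an unadjusted p under 0.05. The 5 were the kinase gene Zap70 (-0.35 log2), the adaptor genes Lcp2 (-0.41) and Lat (-0.39), the Ras activator Rasgrp1 (-0.41) and the phosphatase SHP-1, Ptpn6 (-0.61 ± 0.15). The list's median difference was -0.19 log2, or -0.09 with the covariate. Over all tested genes with a mean log2 CPM of 5 or more the median was -0.13 log2. Ptpn6 rose by 0.80 log2 in wild-type cells and was at 0.19 log2 in Mirc11-/- cells, without passing the test there.

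The route named in the study's title, with TRAF6 and ubiquitin modifiers, had the most genes within the bound. Of 30 measured members, 26 had responses within 1.5-fold in the 2 genotypes. The shares were 27.4% of all tested genes and 2716 of 4698 with a mean log2 CPM of 5 or more. At an unadjusted p under 0.05, 0 members were lower or higher, against 4.89% lower and 5.76% higher among all tested genes. Members outside the bound included Traf5, Cbl, Usp18 and Bcl10, with estimates of 0.47 ± 0.27, 0.24 ± 0.20, -0.16 ± 0.71 and -0.26 ± 0.15 log2. Bcl10, a gene of the CBM complex that the list also covers, had its lowest estimate. It rose by 0.45 log2 in wild-type cells (edgeR adjusted p = 0.0057), while its 0.19 log2 in Mirc11-/- cells did not pass the test. Traf6 was at 66.1, 62.2 and 64.2, then 57.8, 59.8 and 59.1 CPM in wild-type and at 62.9, 63.3 and 63.8, then 56.4, 56.6 and 62.2 CPM in Mirc11-/- cells. Its response was -0.12 log2 in each genotype, which did not pass the test, and the difference was 0.01 ± 0.10 log2. Tnfaip3 went from 163, 155 and 138 to 334, 332 and 371 CPM in wild-type and from 181, 146 and 141 to 380, 403 and 383 CPM in Mirc11-/- cells. Stimulation therefore raised Tnfaip3 by 1.19 and 1.32 log2, with a difference of 0.13 ± 0.15 log2 (95% interval -0.19 to 0.45, equivalence adjusted p = 0.0232). Its partner Tnip1 rose by 0.81 and 0.90 log2, the TAK1-binding gene Tab1 by 0.97 and 0.78 log2, and Traf2 by 0.75 and 0.64 log2. The list's median difference of -0.09 log2 turned to 0.03 log2 with factors computed over well expressed genes and to 0.01 log2 with the vomeronasal covariate.

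All 11 NF-kB subunits and inhibitors had negative differences, which ran from -0.75 to -0.08 log2 by gene. Of the 4698 genes with a mean log2 CPM of 5 or more, 3493 were negative and 2716 within the 1.5-fold bound. The subunit genes Nfkb1, Nfkb2, Rel and Relb rose in both genotypes, by 0.36, 1.37, 0.91 and 1.46 log2 in wild-type and by 0.26, 1.09, 0.83 and 1.33 log2 in Mirc11-/- cells, and Nfkb1 was within the 1.5-fold bound. Nfkbia, which encodes the inhibitor IkB-alpha, went from 25.3, 27.7 and 22.9 to 58.1, 75.5 and 69.7 CPM in wild-type and from 31.9, 26.1 and 29.1 to 45.4, 50.7 and 42.6 CPM in Mirc11-/- cells. Stimulated Nfkbia did not overlap between genotypes, and its difference was -0.75 ± 0.16 log2 (edgeR adjusted p = 0.219). Nfkbiz fell in both genotypes with a difference of -0.60 ± 0.14 log2, and Nfkbid rose in both with -0.41 ± 0.15 log2. Over the 11 genes the median difference was -0.21 log2 (-0.06 with the covariate), with 3 lower and 0 higher at an unadjusted p under 0.05 and 3 within the bound.

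Among 19 NF-kB target genes, 7 were within the bound and 4 lower at an unadjusted p under 0.05. At a mean log2 CPM of 5 or more, 2716 of 4698 genes were within the bound and 436 lower at that p. Traf1, an anti-apoptotic adaptor, went from 100, 110 and 93.7 to 231, 256 and 235 CPM in wild-type and from 88.5, 78.8 and 85.4 to 216, 216 and 212 CPM in Mirc11-/- cells. Its rises of 1.25 and 1.35 log2 were within 1.5-fold (difference 0.10 ± 0.12 log2, equivalence adjusted p = 0.00738). Birc2 and Stat5a also rose alike, by 1.02 and 1.05 log2 and by 1.60 and 1.53 log2. The adhesion gene Icam1 rose by 1.39 and 0.79 log2 (difference -0.60 ± 0.15), and the apoptosis inhibitors Birc3 and Bcl2l1 and the stress gene Ier3 had differences of -0.36 ± 0.10, -0.56 ± 0.18 and -0.89 ± 0.33 log2. The list's median difference of -0.11 log2 was -0.06 log2 with the covariate and turned to 0.01 log2 with factors over well expressed genes, and its median responses had the other order, 0.35 log2 in wild-type and 0.63 log2 in Mirc11-/- cells.

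Of 15 measured AP-1 genes at 6 h, 7 fell and 1 rose in wild-type, and 9 fell and 2 rose in Mirc11-/- cells. Fos fell by 2.11 and 2.08 log2, with a difference of 0.03 ± 0.40 log2. Jun, Junb, Atf3 and Maff had differences of -0.54 ± 0.15, -0.58 ± 0.21, -1.03 ± 0.28 and -0.69 ± 0.25 log2. Fosl2 and the AP-1 competitor Bach2 lay on the other side, with 0.29 ± 0.11 and 0.65 ± 0.19 log2. The list median of -0.25 log2 was 0.01 log2 with the vomeronasal covariate. Negative regulators of ERK signalling, mostly dual-specificity phosphatases and Sprouty proteins, fell in both genotypes (12 of 15 in wild-type and 13 of 15 in Mirc11-/- cells). The median difference was -0.37 log2, with 7 lower and 0 higher at an unadjusted p under 0.05, among them the phosphatase genes Dusp6 (-0.59 ± 0.13) and Dusp2 (-0.50 ± 0.16) and Spry4 (-0.37 ± 0.13). With the covariate their median difference was -0.19 log2. Of all 4698 genes with a mean log2 CPM of 5 or more, 436 were lower at an unadjusted p under 0.05.

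**Figure D4:**
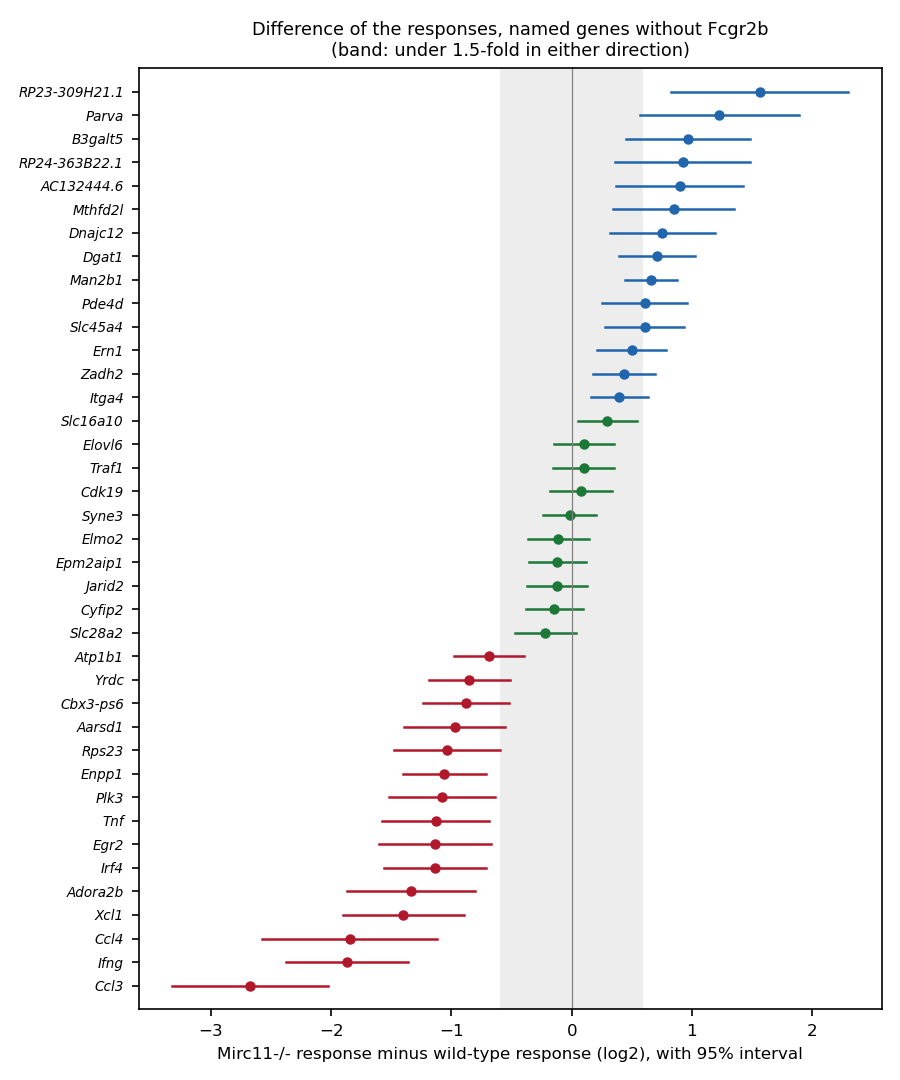
Difference of the log2 responses, Mirc11-/- minus wild-type, with 95% intervals (bars) for the named genes with the smallest p on the lower (red) and higher (blue) side, without Fcgr2b, and the 10 named equal genes (green); the grey band spans 1.5-fold in each direction. The intervals of Ccl3 (-3.32 to -2.03 log2) and Ifng (-2.37 to -1.36 log2) lie outside the band, and the green intervals lie inside it.

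Several lists of metabolic and growth genes had larger fitted falls in Mirc11-/- than in wild-type cells. These differences stood beside the unequal background of the stimulated libraries. Of 25 cholesterol synthesis and uptake genes 23 fell in wild-type and 24 in Mirc11-/- cells, with median responses of -1.01 and -1.38 log2. The median difference was -0.41 log2, 14 were lower and 0 higher at an unadjusted p under 0.05, and 7 did not overlap between genotypes. Of all tested genes, 4.89% were lower at that p and 2.76% lower without overlap. At a mean log2 CPM of 5 or more these were 436 and 257 of 4698 genes. Insig1, a feedback protein of the sterol sensor, went from 93.9, 97.9 and 80.0 to 33.0, 44.9 and 41.1 CPM in wild-type and from 87.5, 98.8 and 106 to 20.6, 31.2 and 27.5 CPM in Mirc11-/- cells, a difference of -0.69 ± 0.21 log2. The stimulated Insig1 ranges did not overlap, whereas Dhcr7, which makes cholesterol from its direct precursor, had a positive estimate of 0.18 ± 0.16 log2. With the covariate the list's median difference was -0.09 log2. Among 20 Myc and ribosome biogenesis genes, Myc fell by 1.04 and 1.69 log2, and Nop56, Nolc1, Rrp9 and Gnl3 had differences between -0.50 and -0.62 log2. The list median was -0.36 log2, with 9 lower and 0 higher at an unadjusted p under 0.05 and 15 members falling in each genotype, and the median was -0.13 log2 with the covariate.

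Stress-response genes followed with a median difference of -0.38 log2 over 20 members, 6 lower and 1 higher at an unadjusted p under 0.05. At a mean log2 CPM of 5 or more, 436 of 4698 genes were lower and 129 higher at that p. Herpud1, an endoplasmic-reticulum stress gene, and Chac1, an ATF4 target, had differences of -0.91 ± 0.21 and -1.07 ± 0.32 log2, and the cystine transporter Slc7a11 had 0.52 ± 0.20 log2. This median reversed to 0.13 log2 with the covariate, and that of the 22 glycolysis and nutrient transport genes went from -0.39 to 0.26 log2. In that list the amino-acid transporter Slc7a5 fell by 1.69 and 2.28 log2. At an unadjusted p under 0.05, 2 of its genes were lower, a share near the 436 of 4698 given above. Replication and cell-cycle genes fell in both genotypes (16 of 23 in wild-type and 19 in Mirc11-/- cells), with a median difference of -0.15 log2 (-0.08 with the covariate) and 1 member, Pcna, lower at an unadjusted p under 0.05. Interferon-stimulated genes had 0 members past that p in either direction and a median of -0.15 log2, which was 0.30 log2 with the covariate. Mitochondrially encoded genes had a median of -0.18 log2 over 13 members, with 1 lower, and -0.46 log2 with the covariate. Across all genes with a mean log2 CPM of 5 or more the median was -0.13 log2. The replication, interferon and mitochondrial medians without the covariate lay near it.

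Effector and surface genes had no member called for the difference of responses (0 by edgeR). Prf1 (perforin) and Gzmb (granzyme B) fell by 0.62 and 0.52 log2 in wild-type and by 1.23 and 1.24 log2 in Mirc11-/- cells. Their differences were -0.61 ± 0.24 and -0.72 ± 0.25 log2 (edgeR adjusted p 0.445 for each), and the 20 cytolytic genes had a median of -0.26 log2, 4 lower and 0 higher at an unadjusted p under 0.05. That median was 0.09 log2 with the covariate. Among all 4698 tested genes with a mean log2 CPM of 5 or more, 436 were lower and 129 higher at an unadjusted p under 0.05. Of these, 2716 were within the bound, and their median difference was -0.13 log2. Rab27a, needed for granule docking, fell by 0.40 and 0.92 log2. The adhesion receptor Crtam was at 151, 218 and 220 CPM in stimulated wild-type and at 123, 158 and 125 CPM in stimulated Mirc11-/- libraries, from 11.5 CPM or less before. The stimulated ranges overlapped, and the difference was -0.65 ± 0.28 log2. Cd69 fell by 1.64 and 2.44 log2, and Tigit, an inhibitory receptor, had a difference of 0.68 ± 0.25 log2. The 19 activation and checkpoint receptors had 5 lower and 1 higher at an unadjusted p under 0.05 and a median of -0.14 log2, or 0.05 log2 with the covariate. Among 21 NK identity genes, with a median of -0.23 log2 (-0.03 with the covariate), 7 were within the bound and 6 lower at an unadjusted p under 0.05, including the transcription factor genes Eomes (-0.54 ± 0.12), Tbx21 (-0.43 ± 0.14) and Id2 (-0.76 ± 0.21). Tbx21 rose by 0.75 and 0.33 log2, while Eomes fell by 0.37 and 0.91 log2, so a negative difference covered a smaller rise in one and a larger fall in the other. Quiescence and homing genes had a median of 0.06 log2 (-0.03 with the covariate) and 0 members past that p in either direction.

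Genes named earlier as targets of the deleted microRNAs included Tnfaip3, Cblb and Itch among the ubiquitin modifiers. Over 24 members the median difference was -0.02 log2, as over all tested genes, 12 were within the bound, and 3 were lower at an unadjusted p under 0.05 (Ifng, Il12rb1 and Ppif). The bound held 27.4% of all tested genes and 2716 of 4698 with a mean log2 CPM of 5 or more. The median turned positive with factors over well expressed genes (0.10), no composition factor (0.05) and a stricter filter (0.11), and was -0.07 with the covariate. Among the 15 named genes with the smallest p for a negative difference, 6 of the 14 with a 3' UTR held a seed match for 1 or more of the microRNAs. The counts were 8 of 12 for the positive differences and 7 of 10 for the equal responses, against 41.7% of all genes searched. The median difference was -0.04 log2 in genes with and -0.10 log2 in genes without a match.

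Larger responses in Mirc11-/- cells were not called in the edgeR fit. Man2b1, a lysosomal mannosidase (chromosome 8, 85083270 to 85098282), was at 85.1, 81.4 and 88.7 CPM in unstimulated and 92.2, 87.0 and 95.7 CPM in stimulated wild-type libraries. In Mirc11-/- cells Man2b1 went from 106, 103 and 107 CPM to 173, 186 and 179 CPM. All Mirc11-/- libraries were above all wild-type libraries, and the stimulated ones were the highest. The response was 0.11 log2 in wild-type cells (edgeR adjusted p = 0.287) and a rise of 0.77 log2 in Mirc11-/- cells, a difference of 0.66 ± 0.10 log2 (95% interval 0.44 to 0.88, edgeR adjusted p = 0.0701). Man2b1 passed with factors over well expressed genes (0.77 log2, adjusted p = 0.0187) and with a stricter filter (0.72 log2, adjusted p = 0.016). It lies 874 kb from the deleted cluster at 84208518 to 84208921 of chromosome 8. Of 77 tested genes within 2 Mb of the cluster, 0 were called, where 2 of all 17457 were. At an unadjusted p under 0.05, 11 were lower and 3 higher. The shares were 4.89% and 5.76% of all tested genes, and 436 and 129 of 4698 with a mean log2 CPM of 5 or more. The median difference near the cluster was -0.18 log2, against -0.02 over all tested genes and -0.13 at that level.

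Dgat1, which makes triglycerides, went from 18.8, 18.2 and 17.8 to 44.8, 35.8 and 42.1 CPM in wild-type and from 21.0, 19.9 and 18.1 to 63.6, 79.1 and 73.6 CPM in Mirc11-/- cells. It rose by 1.16 and 1.88 log2, with a difference of 0.71 ± 0.15 log2 (edgeR adjusted p = 0.174) and no overlap between stimulated groups. Pde4d, a cyclic-AMP phosphodiesterase, rose by 2.07 and 2.68 log2 to 53.0, 38.6 and 45.1 and to 68.8, 80.0 and 73.0 CPM, a difference of 0.61 log2. Itga4, the integrin alpha-4 subunit, started lower in Mirc11-/- cells (82.1, 91.4 and 82.9 against 133, 130 and 138 CPM) and ended at 223, 209 and 222 against 270, 245 and 261 CPM. Its rise was 0.95 log2 in wild-type and 1.35 log2 in Mirc11-/- cells, which narrowed the unstimulated gap of -0.64 log2 (edgeR adjusted p = 0.000816). Fcgr2b, an inhibitory Fc receptor, had 1, 0 and 4 counts in the unstimulated and 59, 20 and 39 counts in the stimulated Mirc11-/- libraries. Wild-type Fcgr2b was at 12.2, 11.7 and 10.02 CPM before and 17.6, 13.4 and 14.7 CPM after stimulation. Its fitted difference of 4.01 ± 0.90 log2 (edgeR adjusted p = 0.13) therefore rests on a few counts, and stimulated Mirc11-/- cells remained below wild-type cells.

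Some genes with strong responses in both genotypes responded within 1.5-fold. Syne3, a nuclear envelope protein, fell by 1.06 and 1.08 log2 (equivalence adjusted p = 0.00549). The actin regulator Cyfip2 fell by 1.22 and 1.36 log2, the Polycomb-associated Jarid2 by 1.19 and 1.31 log2 and the fatty acid elongase Elovl6 by 1.19 and 1.09 log2. The mediator kinase Cdk19 rose by 1.01 and 1.08 log2. With Traf1 and Tnfaip3, the equal responses named here thus included both falls and rises.

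Enpp1, Tnf, Zfp961 and Ccrl2 rose in wild-type and fell in Mirc11-/- cells, each past the test in each genotype. Enpp1, an ectonucleotidase, went from 9.14, 8.68 and 8.74 to 12.1, 13.5 and 10.8 CPM in wild-type and from 12.2, 12 and 11.3 to 7.13, 7.98 and 8.2 CPM in Mirc11-/- cells. The stimulated ranges did not overlap, and unstimulated Mirc11-/- cells were above wild-type cells. Its difference was -1.06 ± 0.16 log2 (edgeR adjusted p = 0.0701). Ptprg and Trim71 fell in wild-type and rose in Mirc11-/- cells at low levels, with at most 23 counts of Ptprg and 25 of Trim71 in any library.

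Across all genes the differences varied with expression level. The median difference was 0.34 log2 below a mean log2 CPM of 2, -0.07 from 2 to 5 and -0.13 at 5 or more. Without stimulated Mirc11-/- replicate 1 these medians were 0.17, -0.03 and -0.06 log2, and with the vomeronasal covariate -0.08, 0.00 and 0.01 log2. The highest level of background, in stimulated Mirc11-/- libraries, stood beside these low-level rises, and its part was not tested beyond that covariate. Of 1328 genes called in both genotypes with an absolute response of at least 1 log2 in the same direction, 928 rose and 400 fell. The response was larger in Mirc11-/- cells for 644 of the 928 rises and for 271 of the 400 falls. At a mean log2 CPM of 5 or more the larger response lay in Mirc11-/- cells for 56 of 86 rises and 85 of 97 falls. The 20 largest wild-type rises had medians of 4.89 log2 in wild-type and 3.88 log2 in Mirc11-/- cells, with 14 smaller in Mirc11-/- cells, although these genes were chosen for their wild-type rise. Over the 100 largest wild-type rises the medians were 2.00 and 1.99 log2, with 52 smaller and 48 larger in Mirc11-/- cells. The 20 largest rises chosen in Mirc11-/- cells had medians of 4.89 log2 in wild-type and 4.17 log2 in Mirc11-/- cells. Their median difference was 0.33 log2, with 12 larger and 8 smaller in Mirc11-/- cells. For these sets of 20 rises the counts leaned toward the genotype used for the choice, whereas the median response was higher in wild-type cells under either choice. Of the 20 largest wild-type falls, 16 were larger in Mirc11-/- cells.

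**Figure D5:**
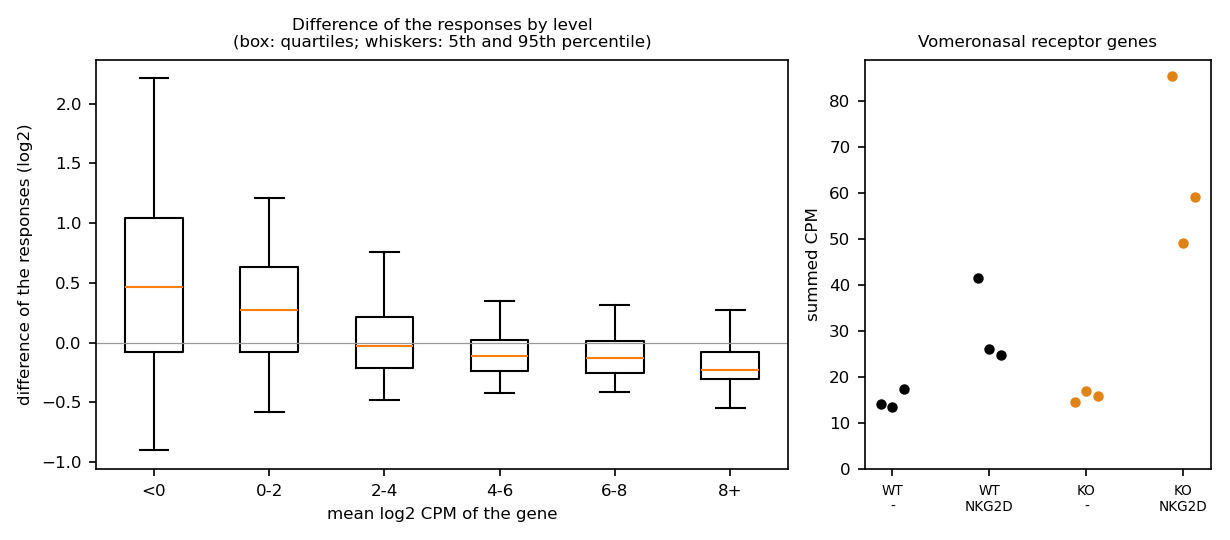
Left, difference of the log2 responses (vertical axis) of tested genes in bins of mean log2 CPM; boxes are quartiles with the median, and whiskers reach the 5th and 95th percentiles. Right, summed CPM of vomeronasal receptor genes in each library (points) by group. The medians go from 0.47 log2 below a log2 CPM of 0 to -0.23 log2 at 8 or more, and the vomeronasal sums are highest in the stimulated Mirc11-/- libraries (49.1 to 85.4 CPM).

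The promoters of Ccl3, Ifng and Tnfaip3 are shown because the first pair are the called genes and Tnfaip3 is an inducible gene with an equal response. They are RefSeq sequences of GRCm38.p6 from 250 bases before to 50 bases after the start, in the gene's own direction, and capitals mark the NF-kB site consensus, the AP-1 site TGANTCA and the NFAT core GGAAA, each searched on both strands (an NF-kB match can contain the NFAT core).
Ccl3, minus strand, chr11:83649329-83649628: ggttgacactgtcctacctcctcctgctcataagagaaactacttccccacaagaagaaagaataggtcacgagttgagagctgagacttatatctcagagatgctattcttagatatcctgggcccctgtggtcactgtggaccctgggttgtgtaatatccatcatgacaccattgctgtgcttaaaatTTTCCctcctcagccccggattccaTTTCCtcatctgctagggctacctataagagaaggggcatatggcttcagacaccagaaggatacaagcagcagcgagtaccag
Ifng, plus strand, chr10:118440796-118441095: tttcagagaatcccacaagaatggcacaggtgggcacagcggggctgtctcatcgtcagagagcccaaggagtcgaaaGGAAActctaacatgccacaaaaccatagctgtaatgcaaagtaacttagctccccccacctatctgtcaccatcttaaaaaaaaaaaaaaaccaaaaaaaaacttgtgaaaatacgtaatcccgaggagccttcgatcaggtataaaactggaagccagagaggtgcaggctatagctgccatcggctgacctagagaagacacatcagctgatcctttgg
Tnfaip3, minus strand, chr10:19015361-19015660: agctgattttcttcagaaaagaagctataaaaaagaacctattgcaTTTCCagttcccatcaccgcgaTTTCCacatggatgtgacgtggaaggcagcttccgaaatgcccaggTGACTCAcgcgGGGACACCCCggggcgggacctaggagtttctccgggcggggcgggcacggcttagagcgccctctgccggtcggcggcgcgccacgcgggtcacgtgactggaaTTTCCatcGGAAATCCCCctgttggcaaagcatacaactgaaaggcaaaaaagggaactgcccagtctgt
Tnfaip3 held 2 NF-kB matches and 1 AP-1 match in this window, and Ccl3 and Ifng held none of either. Another Tnfaip3 promoter, chr10:19011914-19012213, held no NF-kB, AP-1 or NFAT match. Ccl3 held 2 NFAT cores and Ifng 1. Over 32851 promoters of 300 bases, 8.46% held an NF-kB match, 7.81% an AP-1 match and 61.3% an NFAT core. Among the named genes with a matched promoter, NF-kB matches were present in 3 of 13 with negative and 0 of 7 with positive differences, and in 1 of 9 with equal responses. These counts used the first listed promoter of each gene, and the other Egr2 promoters held no NF-kB match. A match describes letters in this window only.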

How the data were processed

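The submitters' processing notes name GRCm38, RSEM 1.3.0, Bowtie2 2.2.8, bcl2fastq and Trim Galore 0.4.1. Annotation release and strand setting are not given in the sources used here. The authors deposited expected counts per gene as whole numbers, not scaled between libraries, and overlapping or antisense genes cannot be told apart. Genes kept by filterByExpr (by group) were fitted in edgeR 4.0.16 under R 4.3.3 by robust quasi-likelihood with TMM factors and 1 mean per group over 12 libraries. The Benjamini-Hochberg method adjusted two-sided p-values over 17457 genes (threshold 0.05). SE values are from the fit. Equal response was tested with a pair of one-sided tests against 1.5-fold. Named genes were a set of 18, the called genes, the 15 lower, 15 higher and 10 equal genes that ranked first, and up to 3 genes per list; most are given by counts, and other names in the text were picked with their values in view. The members, lists and tests were chosen with earlier results of these data known. Gene positions are from GENCODE vM21, which matched 17411 of the tested genes. The fitting steps were tested on simulated data. There were 23 alternatives, including limma 3.58.1 voom and DESeq2 1.42.0. Some members of the lists are not reported here.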

Additional observations from a re-analysis of the deposited data

Results flagged for a closer look

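Of the results given above, 2 were singled out because the same contrast, stimulated against unstimulated, differed between the genotypes by a test of the difference itself. These were Ccl3, with a difference of -2.68 log2, and Ifng, with -1.87 log2 (edgeR adjusted p = 0.0223 for each). Groups of 3 libraries were not screened for single outlying values.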

How the results depend on the processing

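Called differences are counted here by sign, so a negative one can be a smaller rise or a larger fall. The 2 negative and 0 positive differences were kept in number by DESeq2 size factors, no composition factor, a non-robust spread and limma voom. Factors over well expressed genes and the stricter filter each gave 1 positive difference (Man2b1), and the latter added Enpp1 to the negative ones (edgeR adjusted p = 0.0461). With no filter there were 32 negative and 15 positive differences and 1195 equal responses, and the DESeq2 Wald test gave 52 negative and 17 positive differences. The vomeronasal covariate called 0 negative differences (262 lower and 241 higher at an unadjusted p under 0.05). Leaving out 1 library gave 0 to 17 negative and 0 to 2 positive differences and 3115 to 7289 equal responses. The 17 came without stimulated wild-type replicate 1, and the 7289 without stimulated Mirc11-/- replicate 1. Ccl3 and Ifng kept their sign in all 23 alternatives, with -2.95 to -2.47 and -2.03 to -1.69 log2 when 1 library was left out. Without a filter the adjusted p of Ccl3 was 0.052. Of 2392 values of 104 named genes, 27 changed sign, in 14 genes. Deviations of same-numbered libraries correlated at 0.20 to 0.46 in wild-type cells, where each library correlated best with its own number, but at -0.09 to 0.29 in Mirc11-/- cells, so the numbers were not taken to pair samples in both genotypes. The replicate block within genotype called 10 negative (with Ccl4, Ccl9, Xcl1, Tnf and Cd69) and 3 positive differences (with Fcgr2b), and a block over all groups 3 and 0. Cd69 among these had a larger fall in Mirc11-/- cells. Except where fewer samples or other genes entered, the cause was not tested. Low counts limit genes such as Fcgr2b, and SE was largest below a log2 CPM of 0.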
